A study of Mus musculus with 6 samples.

Results

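Tight junctions, adherens junctions and the polarity complexes that place them are the parts that make a sheet of epithelium. Claudins and the occludin family cross the membrane and close the space between neighbouring cells. Plaque proteins on the inside of the membrane tie them to actin. Cadherins and nectins hold cells together just below, through catenins, and the apical and basolateral polarity proteins fix where this belt forms. In the uterus many of these proteins belong to the luminal and glandular epithelium, whose apical surface and junctions are remodeled around the time an embryo attaches. Others, such as those of Cdh11, Jam2 and Tjp1, are known from mesenchymal or endothelial cells as well. The 40 genes described here are 36 members of these groups and 4 genes of the epithelial surface and of epithelial splicing. They were chosen by name from earlier results of these data, and all 40 were among the 18193 genes that an array probe set names alone. A gene is given by the brightest of its probe sets over the 6 arrays.

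The arrays held RNA of whole uteri at 3.5 dpc (days post coitum), from Arid1a d/d mice and from Arid1a f/f mice, with 3 arrays per genotype. Arid1a encodes a component of SWI/SNF chromatin remodeling complexes. In Arid1a d/d mice, Cre made from the Pgr locus deletes the floxed alleles in cells that express PGR, so that other uterine cells keep the gene. Arid1a f/f mice carry the floxed alleles without Cre, so the genotypes also differ at Pgr, and no age is given for the mice used for arrays. Whether the samples of a genotype are different mice is not in the labels, and the p-values then cover only the spread between these samples. Arid1a itself had an intensity of 51.9, 51.9 and 58.2 on the Arid1a d/d arrays and 83.6, 86.9 and 103.9 on the Arid1a f/f arrays. The intensities are on a linear scale, and the median over the whole table is 3.12. They carry no detection calls, so a value near or below that median cannot be told from background. Markers of uterine stromal fibroblasts had a mean log2 intensity of 7.88 to 8.33 in Arid1a d/d uteri and 8.48 to 8.50 in Arid1a f/f uteri, and those of smooth muscle 7.99 to 8.32 in Arid1a d/d uteri and 8.22 to 8.44 in Arid1a f/f uteri.

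Of the 40 members, 7 rose and 1 fell in Arid1a d/d uteri at an adjusted p under 0.05 (limma, Benjamini-Hochberg over all 45037 probe sets), and 32 did not pass the test. The genes that rose were the plaque genes Tjp3 and Cgn, the basolateral polarity gene Llgl2, the cadherin genes Cdh1 and Cdh16, the nectin gene Pvrl3 and the ezrin gene Ezr. The gene that fell was the claudin gene Cldn8. In RNA of whole uteri, a change in the share of a cell type and a change of RNA per cell cannot be told apart. Over all 18193 genes, 3.37% were higher and 4.06% lower by the same test. At an unadjusted p under 0.05, 16 members were higher and 3 lower, where 11.4% of all genes were higher and 13.5% lower. On 15 members every Arid1a d/d array lay above every Arid1a f/f array, a pattern found in 13.4% of all genes. On 2 of the 40 members, Cldn8 and Tjp1, every Arid1a d/d array lay below every Arid1a f/f array, against 16.0% of all genes. The median log2 fold change of the members was 0.26, with 29 above 0 and 11 below, and that of all genes was -0.018. Without Arid1a f/f replicate 2, 1 member was higher and 0 were lower in limma, with 13 and 3 at an unadjusted p. The methods' t-test, which does not pool the spread over genes, called 0 members after Benjamini-Hochberg adjustment, with 10 higher and 2 lower at an unadjusted p. This t-test is the study's general rule for data with 2 groups, while its array methods name fold change filters. The shares of all genes called by the t-test or with an array left out are not given here. Because the members were chosen with earlier results known, these counts describe them and are not a test of the group.

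**Figure D1:**
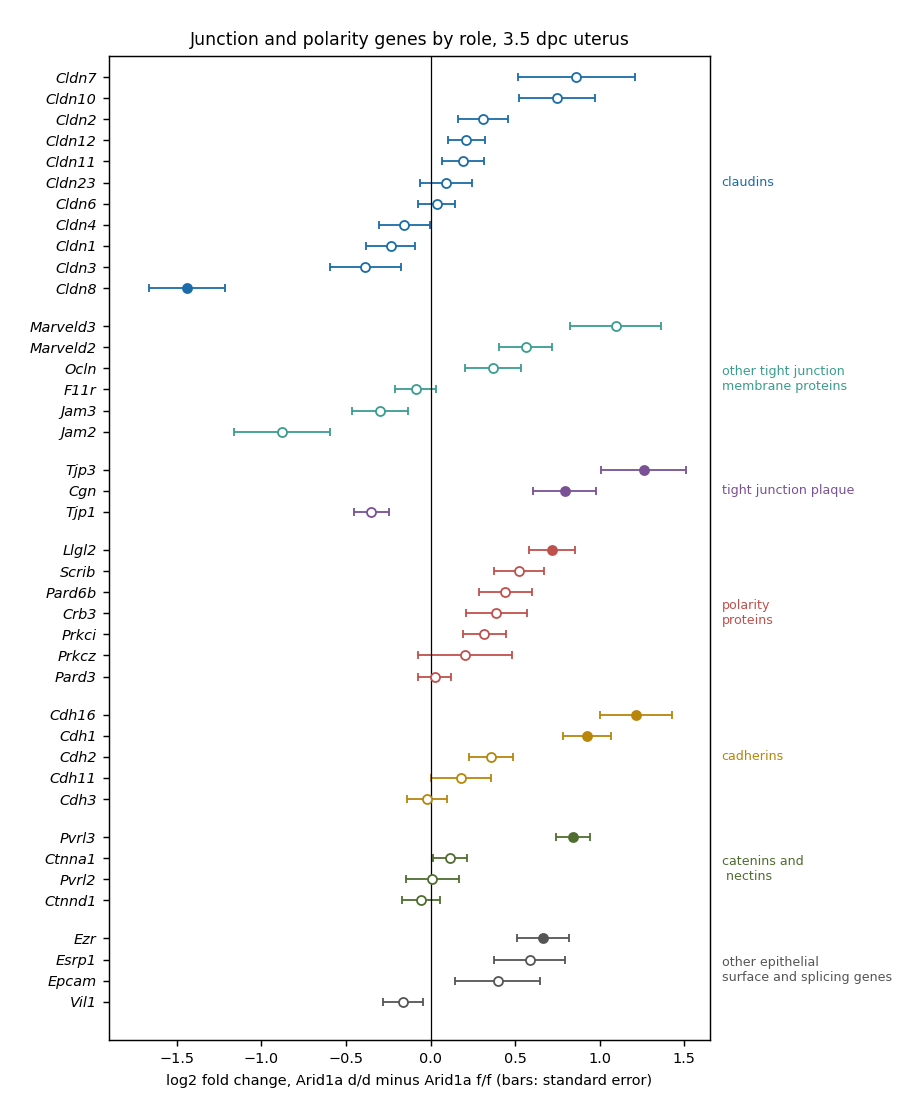
Log2 fold change, Arid1a d/d over Arid1a f/f (horizontal axis), for each of the 40 members, grouped by role and marked by color. Each point is 1 gene with its standard error from limma (3 arrays per genotype), filled where the adjusted p is under 0.05 and open where it is not. The filled points are 7 genes to the right of 0 and Cldn8 at -1.44.

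Promoters of 4 of the genes that rose, Tjp3, Cgn, Pvrl3 and Ezr, were taken from the table of RefSeq promoters on GRCm38.p6 used here, which holds 26 of the 40 members. The 250 bases before each annotated start are shown, read on the strand of the gene, because these are the sequences at which members that moved together could be compared. Capitals mark the searched motifs: the E-box CAGGTG, to which SNAIL and ZEB repressors of epithelial genes bind, the grainyhead motif AACCNGTT, the GC box GGGCGG, the AP-1 motif TGANTCA, the palindromic estrogen response element and the TATA motif TATAAA, each on both strands. Tjp3 has 2 annotated starts. The windows are chr10:81291582-81291831 and chr10:81291268-81291517 for Tjp3, chr3:94786483-94786732 for Cgn, chr16:46496968-46497217 for Pvrl3 and chr17:6782781-6783030 for Ezr, all on the minus strand.
Tjp3, first start: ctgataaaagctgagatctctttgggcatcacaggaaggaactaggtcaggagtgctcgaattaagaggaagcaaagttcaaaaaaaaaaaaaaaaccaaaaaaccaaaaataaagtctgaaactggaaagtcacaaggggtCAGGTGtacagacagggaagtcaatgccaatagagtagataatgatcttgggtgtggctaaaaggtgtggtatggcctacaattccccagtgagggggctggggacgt
Tjp3, second start: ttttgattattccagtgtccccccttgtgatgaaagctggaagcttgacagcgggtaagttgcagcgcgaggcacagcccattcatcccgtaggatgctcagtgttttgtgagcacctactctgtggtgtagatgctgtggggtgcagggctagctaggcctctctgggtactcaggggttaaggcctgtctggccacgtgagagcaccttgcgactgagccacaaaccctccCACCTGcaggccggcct
Cgn: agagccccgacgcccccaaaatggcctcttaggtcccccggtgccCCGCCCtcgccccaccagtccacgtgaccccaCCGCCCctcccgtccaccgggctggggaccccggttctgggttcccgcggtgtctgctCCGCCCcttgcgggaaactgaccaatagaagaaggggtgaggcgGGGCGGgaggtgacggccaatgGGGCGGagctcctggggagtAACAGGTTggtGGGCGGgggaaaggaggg
Pvrl3: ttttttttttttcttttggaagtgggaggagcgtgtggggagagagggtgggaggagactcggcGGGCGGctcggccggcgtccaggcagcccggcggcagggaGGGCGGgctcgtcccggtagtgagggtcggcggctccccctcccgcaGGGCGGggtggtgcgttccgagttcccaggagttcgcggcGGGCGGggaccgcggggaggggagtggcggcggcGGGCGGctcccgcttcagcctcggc
Ezr: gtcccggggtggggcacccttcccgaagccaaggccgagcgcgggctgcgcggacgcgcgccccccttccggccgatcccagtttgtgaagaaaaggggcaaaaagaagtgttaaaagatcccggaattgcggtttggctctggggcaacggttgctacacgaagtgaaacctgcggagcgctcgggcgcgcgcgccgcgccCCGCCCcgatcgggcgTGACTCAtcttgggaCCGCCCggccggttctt

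The motifs differed between these windows. Both windows of Tjp3 hold an E-box, 108 to 103 and 17 to 12 bases before the start, and no GC box. Cgn holds 6 GC boxes, and 29 to 22 bases before its start the letters AACAGGTT, a match to the grainyhead motif on the opposite strand. Pvrl3 holds 5 GC boxes. Ezr holds 2, with an AP-1 motif between them at 32 to 26 bases before the start. Of the 26 members with a promoter in that table, 12 hold an E-box, against 19.4% of the 27025 genes in it. Among the 4 genes shown here, only Tjp3 does. The other genes that rose, Cdh1, Llgl2 and Cdh16, have no promoter in that table, and neither has Cldn8, so their motifs were not read. The GC box is in 22 of the 26 and in 35.4% of all genes, and the AP-1 motif in 3 of the 26 and in 7.82%. The grainyhead motif is in Cgn alone of the 26 and in 2.00% of all genes, the TATA motif in 4 and in 14.3%, and the estrogen response element in 0 and in 0.067%. A gene counts here when any of its windows holds the motif. Several of the 26 members have 2 or 3 windows, while the 27025 genes have 32851 in all, and no enrichment was tested. A match says only that these letters occur in the window.

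Among the claudin genes, Cldn8 alone passed the test. Of 11 claudin genes, 0 rose and 1 fell at an adjusted p under 0.05, against 3.37% and 4.06% of all genes. At an unadjusted p, 2 were higher and 1 lower, against 11.4% and 13.5% of all genes. The median log2 fold change of the 11 claudin genes was 0.092. Cldn8, known as a sealing claudin of the distal kidney tubule, had an intensity of 2.43, 2.29 and 1.96 in Arid1a d/d uteri, against 4.35, 5.77 and 8.71 in Arid1a f/f uteri. Its log2 fold change was -1.44 (SE 0.22, limma adjusted p = 0.0123). The Arid1a d/d arrays were all under the table's median of 3.12, which leaves the size of this fall uncertain. Without Arid1a f/f replicate 2 the fold change was -1.47 and the adjusted p was 0.0543.

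Among these 11 genes, Cldn7 and Cldn10 had the highest fold changes, and neither passed the test. Cldn7, which is widely used in epithelia, had 126, 386 and 169.6 in Arid1a d/d uteri and 109, 124 and 101 in Arid1a f/f uteri. Its log2 fold change of 0.86 (SE 0.34, limma adjusted p = 0.220) was 0.39 without Arid1a d/d replicate 2, the array with the highest value. Cldn10, whose isoforms form ion pores, had 61.5, 37.0 and 37.2 in Arid1a d/d uteri and 20.4, 31.0 and 28.2 in Arid1a f/f uteri, with a log2 fold change of 0.75 (SE 0.22, limma adjusted p = 0.106). Here Arid1a d/d replicate 1 was the highest array, and the genotypes did not overlap on either gene.

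Cldn3, a barrier-forming claudin gene, had fold changes below 0. It had 173, 205 and 303 in Arid1a d/d uteri and 349, 243 and 285 in Arid1a f/f uteri, so that the genotypes overlapped. The log2 fold changes of its 4 probe sets were between -0.42 and -0.30, and none passed the test. Cldn4, its neighbor in the genome with no protein-coding gene between them, had -0.16 (limma adjusted p = 0.680), with 20.8 to 31.4 in Arid1a d/d uteri and 27.7 to 31.7 in Arid1a f/f uteri. Cldn1 had -0.24, Cldn12 0.21 and Cldn23 0.092, and none of them passed the test. The pore-forming Cldn2 had 0.31, Cldn6 0.036 and Cldn11, a claudin of Sertoli cells and myelin, 0.19, all with means below the median of all intensities in both genotypes.

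Among the other membrane proteins of the tight junction, the genes of the occludin family had positive fold changes and those of the junctional adhesion molecules negative ones, but none of the 6 passed the test. Ocln, the occludin gene, had 15.8, 23.7 and 15.4 in Arid1a d/d uteri and 13.6, 13.6 and 14.5 in Arid1a f/f uteri, with a log2 fold change of 0.37 (SE 0.16, limma adjusted p = 0.274). Marveld2, which encodes tricellulin, the protein of the corners where cells meet, had 4.11, 5.99 and 4.67 in Arid1a d/d uteri and 2.96, 3.19 and 3.78 in Arid1a f/f uteri (log2 fold change 0.56, SE 0.16, limma adjusted p = 0.0838). The Arid1a f/f mean of Marveld2 was near the table's median, which leaves the size of this difference uncertain. Marveld2 lies next to Ocln in the genome, with no protein-coding gene between them. On both genes all Arid1a d/d arrays were above all Arid1a f/f arrays, and Arid1a d/d replicate 2 was the highest.

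Marveld3, also of this family, came closest to the threshold. It had 9.58, 22.2 and 11.2 in Arid1a d/d uteri, against 5.97, 6.29 and 6.52 in Arid1a f/f uteri, with a log2 fold change of 1.09 (SE 0.27, limma adjusted p = 0.0564). It passed without Arid1a d/d replicate 1 or Arid1a d/d replicate 2. Its other probe sets, both dim, had 0.11 and 0.035. F11r, which encodes the junctional adhesion molecule of epithelium and platelets, had -0.089, and Jam3 -0.30. Jam2, known from endothelium and other cells, had 37.1, 29.5 and 69.4 in Arid1a d/d uteri and 96.7, 68.5 and 71.3 in Arid1a f/f uteri (log2 fold change -0.88, limma adjusted p = 0.133). Without Arid1a d/d replicate 3, whose value lay among those of the Arid1a f/f arrays, it was -1.23 (limma adjusted p = 0.0203). The 5 probe sets of Jam2 disagreed in direction, from -0.90 to 0.65. The second brightest had -0.90 (limma adjusted p = 0.0773), with all Arid1a d/d arrays below all Arid1a f/f arrays. The next had 0.65, and the dimmest had -0.39 and -0.27.

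The plaque genes showed both directions. Tjp3, a zonula occludens scaffold gene expressed mainly in epithelium, had 9.34, 19.2 and 10.1 in Arid1a d/d uteri and 5.46, 5.51 and 4.36 in Arid1a f/f uteri. It rose by 1.26 on the log2 scale (SE 0.25, limma adjusted p = 0.0283). The arrays did not overlap, and Arid1a d/d replicate 2 was the highest. The fold change was 0.93 without Arid1a d/d replicate 2 and still passed. Without Arid1a f/f replicate 1, 2 or 3 it was 1.31, 1.32 or 1.15, with adjusted p values of 0.0790, 0.0894 and 0.105.

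Cgn encodes cingulin, which links the plaque to actin and myosin. It had 8.83, 13.2 and 12.1 in Arid1a d/d uteri and 8.06, 5.45 and 6.18 in Arid1a f/f uteri (log2 fold change 0.79, SE 0.19, limma adjusted p = 0.0487). The lowest Arid1a d/d array and the highest Arid1a f/f array were close to each other. The call of Cgn was lost without Arid1a d/d replicate 2 or 3 or Arid1a f/f replicate 2 or 3, with fold changes of 0.67, 0.74, 0.67 and 0.76, and its other, dim probe set had 0.044. Tjp1, the scaffold gene found in epithelium and endothelium alike, had 90.3, 81.5 and 94.3 in Arid1a d/d uteri, against 105.8, 114.6 and 118.8 in Arid1a f/f uteri. All Arid1a d/d arrays were lower, but the log2 fold change of -0.35 (SE 0.10, limma adjusted p = 0.0986) did not pass the test.

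All 7 polarity genes had log2 fold changes above 0, from 0.025 to 0.72, and 1 of them rose, where 3.37% of all genes did. Of all genes, 46.5% were above 0, and of 17 other polarity genes, given below, 7 were above 0 and 10 below. Llgl2, a basolateral gene of the lethal giant larvae family, had 13.8, 18.2 and 15.4 in Arid1a d/d uteri and 9.32, 8.61 and 10.8 in Arid1a f/f uteri, without overlap. Its log2 fold change was 0.72 (SE 0.13, limma adjusted p = 0.0231). It lost the call without Arid1a d/d replicate 2 or 3 or Arid1a f/f replicate 1 or 2, with fold changes of 0.61, 0.73, 0.70 and 0.65. Scrib, its partner at the basolateral membrane, had 7.69, 11.02 and 10.65 in Arid1a d/d uteri and 6.95, 7.16 and 6.12 in Arid1a f/f uteri (log2 fold change 0.52, SE 0.15, limma adjusted p = 0.0924), and passed without Arid1a d/d replicate 1.

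None of the apical polarity genes passed the test on the probe set that stood for the gene. Crb3, the Crumbs gene of epithelium, had a log2 fold change of 0.39 (limma adjusted p = 0.296) where it was brightest. A second probe set of Crb3 passed the test, with 8.66, 11.3 and 13.1 in Arid1a d/d uteri and 6.77, 7.04 and 6.77 in Arid1a f/f uteri (log2 fold change 0.66, limma adjusted p = 0.0407), and its remaining one had 0.16. Of the genes of the apical PAR complex, Pard6b had 0.44, the atypical protein kinase C genes Prkci and Prkcz 0.32 and 0.20, and Pard3, the scaffold of the complex, 0.025. The Arid1a f/f mean of Pard6b was below the table's median, so the size of its difference is uncertain. The value of Prkcz had a standard error larger than itself, where Arid1a d/d replicate 3 had 7.0 and replicates 1 and 2 had 2.84 and 3.72. Prkci had -0.21 on its other, dim probe set.

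Of the 5 cadherin genes, 2 rose, where 3.37% of all genes did. Cdh1, which encodes E-cadherin, the main adhesion protein of the epithelial adherens junction, had 171, 240.0 and 225 in Arid1a d/d uteri, against 109.5, 103 and 119.8 in Arid1a f/f uteri. Its log2 fold change was 0.92 (SE 0.14, limma adjusted p = 0.0119), and the lowest Arid1a d/d array was well above the highest Arid1a f/f array. Among the 6 fits that left out 1 array, it lost the call without Arid1a f/f replicate 2, where it had 0.87 (limma adjusted p = 0.0569). Cdh16, an atypical cadherin gene first known from kidney, had 4.01, 7.50 and 5.53 in Arid1a d/d uteri and 2.11, 2.76 and 2.28 in Arid1a f/f uteri (log2 fold change 1.22, SE 0.21, limma adjusted p = 0.0179). The Arid1a f/f arrays were all under the table's median, which leaves the size of this rise uncertain. Cdh16 lost the call without Arid1a d/d replicate 3 or without any 1 Arid1a f/f array, with fold changes of 1.21 and of 1.13 to 1.33.

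The other 3 cadherin genes did not pass the test. Cdh3, the P-cadherin gene, which lies next to Cdh1 with no protein-coding gene between them, had -0.023 (limma adjusted p = 0.952). Its arrays held 5.05 to 5.87 in Arid1a d/d uteri and 4.96 to 6.18 in Arid1a f/f uteri. Cdh2, the N-cadherin gene, had 0.36, with all Arid1a d/d arrays above the Arid1a f/f arrays, and -0.17 on its other probe set. Cdh11, a cadherin gene of mesenchymal cells, had 329 to 526 in Arid1a d/d uteri and 325 to 428 in Arid1a f/f uteri (log2 fold change 0.18).

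Of the 4 nectin and catenin genes, Pvrl3 rose. It encodes nectin-3, named Nectin3 in the platform annotation, an immunoglobulin-like adhesion protein that binds other nectins across the junction. It had 45.9, 46.4 and 42.2 in Arid1a d/d uteri, against 26.9, 24.2 and 23.9 in Arid1a f/f uteri, with a log2 fold change of 0.84 (SE 0.10, limma adjusted p = 0.00468). The arrays of each genotype lay close together and far from those of the other genotype. Pvrl3 was the single member of the 40 that kept its call whichever of the 6 arrays was left out, with fold changes of 0.81 to 0.90. It has 6 probe sets. One more passed, with 0.65 (limma adjusted p = 0.0122), another had 1.07 (limma adjusted p = 0.0556), and the 3 dimmest had -0.037 to 0.19.

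The other genes of this role had fold changes near 0. Pvrl2, the gene of nectin-2, had 0.011 on the log2 scale, with 25.5 to 32.2 in Arid1a d/d uteri and 22.8 to 33.9 in Arid1a f/f uteri. Ctnna1, the alpha-catenin gene, had 0.11 and its 4 probe sets were between -0.20 and 0.11. Ctnnd1, which encodes the catenin that holds cadherins at the surface, had -0.057.

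**Figure D2:**
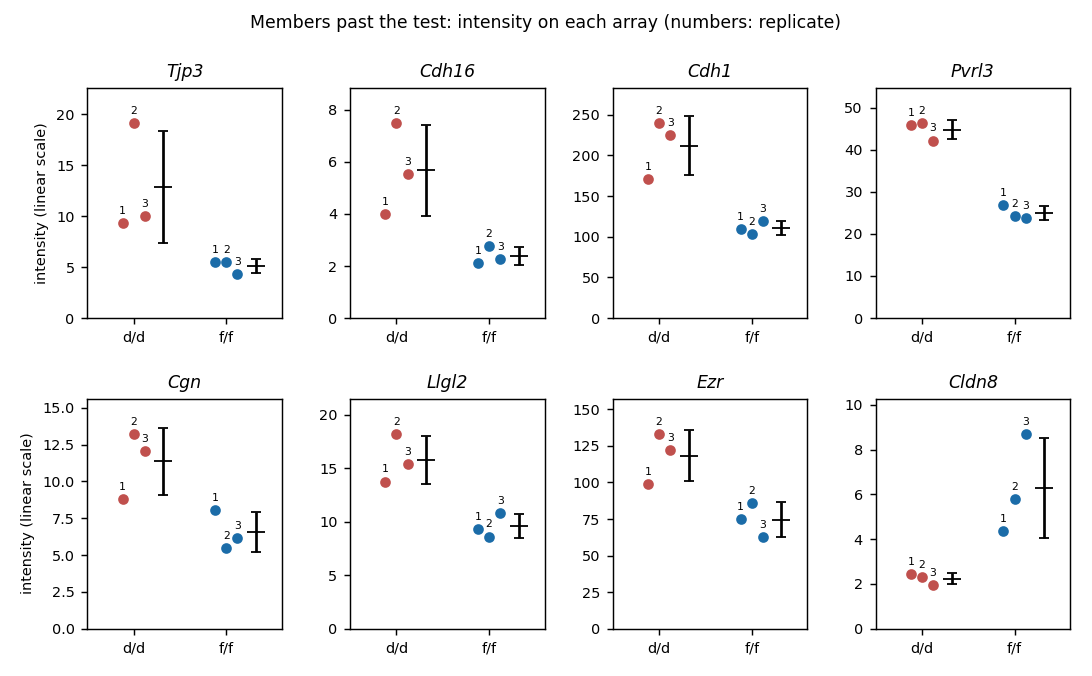
Intensity on a linear scale (vertical axis, from 0) of the 8 members that passed the test, in Arid1a d/d uteri (red, left) and Arid1a f/f uteri (blue, right). Each point is 1 array with its replicate number, and the bars give the mean and SD of 3 arrays. On Pvrl3 the Arid1a d/d arrays run from 42.2 to 46.4 and the Arid1a f/f arrays from 23.9 to 26.9, and on Tjp3 the Arid1a d/d arrays run from 9.34 to 19.2.

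Of the remaining 4 genes, Ezr rose. Ezr encodes ezrin, which anchors microvilli and the apical membrane to actin. It had 99.1, 133 and 122 in Arid1a d/d uteri and 75.2, 86.0 and 62.6 in Arid1a f/f uteri (log2 fold change 0.67, SE 0.15, limma adjusted p = 0.0446). Its arrays did not overlap, yet when each array was left out in turn the call was kept once, without Arid1a d/d replicate 1, at 0.79. It was lost without Arid1a d/d replicate 2 or 3 (0.57 and 0.64) and without Arid1a f/f replicate 1, 2 or 3 (0.68, 0.77 and 0.54), and the other probe set of Ezr had 0.028. Vil1, the villin gene of microvilli, had -0.16 at intensities below the median of the table.

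Epcam, the adhesion molecule gene that marks epithelial cells, had 104.9, 235 and 136 in Arid1a d/d uteri and 116, 106 and 119 in Arid1a f/f uteri. The genotypes overlapped, with a log2 fold change of 0.40 (SE 0.25, limma adjusted p = 0.473) that was 0.070 without Arid1a d/d replicate 2. The second probe set of Epcam passed the test, with 30.4, 39.9 and 37.8 in Arid1a d/d uteri and 23.4, 23.1 and 21.9 in Arid1a f/f uteri (log2 fold change 0.65, limma adjusted p = 0.0227). Esrp1, which directs epithelial splicing of many transcripts, had 28.6 to 51.1 in Arid1a d/d uteri and 22.5 to 29.9 in Arid1a f/f uteri (log2 fold change 0.58, limma adjusted p = 0.169).

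**Figure D3:**
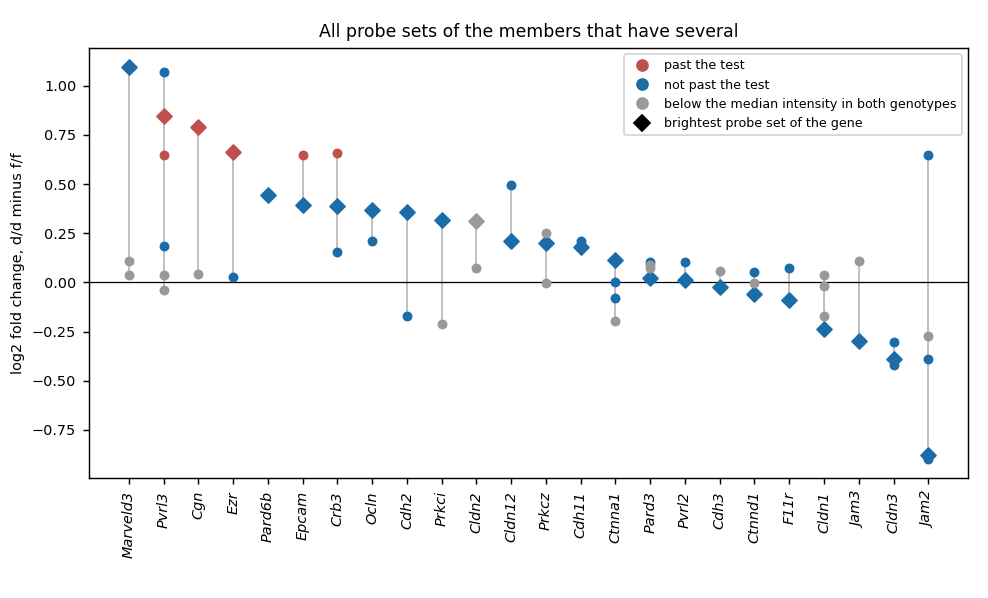
Log2 fold change, Arid1a d/d minus Arid1a f/f (vertical axis), of every probe set of the 24 members that have several (horizontal axis). Each point is 1 probe set, a diamond marking the brightest of its gene, red where it passed the test, blue where it did not and gray where its mean lies below the median intensity in both genotypes. Pvrl3, Epcam and Crb3 show further probe sets that rose, and those of Jam2 lie on both sides of 0.

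In all, 24 members have several probe sets, 83 over the 40 members, and the size of a change often differed between them. The probe sets of Cldn3 lay close together, while those of Pvrl3, Jam2 and Marveld3 were spread over about 1 on the log2 scale or more. Where the probe sets of a gene differ, these arrays do not show which transcript each one reads. The second probe sets of Epcam and Crb3 that passed are of a kind that can read several transcripts. The brightest probe sets of both genes are of that kind too.

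The Arid1a d/d arrays differed among themselves in these genes. Arid1a d/d replicate 2 was the highest Arid1a d/d array in 22 of the 40 members (55.0%), against 30.6% of all genes. Arid1a d/d replicate 1 was the lowest in 25 of the 40 (62.5%), against 37.8% of all genes. The mean log2 intensity of the members was 4.37, 4.64 and 4.54 on the Arid1a d/d arrays and 4.26 on each of the Arid1a f/f arrays. On 11 markers of the epithelium it was 5.64, 6.38 and 5.47 on the Arid1a d/d arrays and 5.17, 5.33 and 5.10 on the Arid1a f/f arrays. Arid1a d/d replicate 2 was the highest Arid1a d/d array in 7 of these markers. Arid1a f/f replicate 2 was likewise the highest Arid1a f/f array in 7 of them, against 28.5% of all genes. Of these markers 1 rose, Wnt7a, against 3.37% of all genes. Their median log2 fold change was 0.77, with 8 above 0 and 3 below, from -1.05 to 2.55. Sprr2f had 2.55, the keratin gene Krt18 had 0.14, and Prom1 had -0.54 with every Arid1a d/d array below every Arid1a f/f array. Krt8, a keratin gene of simple epithelium, had 300.0, 593 and 377 in Arid1a d/d uteri and 244, 261 and 214 in Arid1a f/f uteri, and Foxa2, a gland marker, had 5.30, 4.43 and 4.39 in Arid1a d/d uteri and 7.04, 8.54 and 15.3 in Arid1a f/f uteri. The part of epithelial content in the changes of the members was not tested. Without Arid1a d/d replicate 2, 5 members were higher and 1 was lower.

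**Figure D4:**
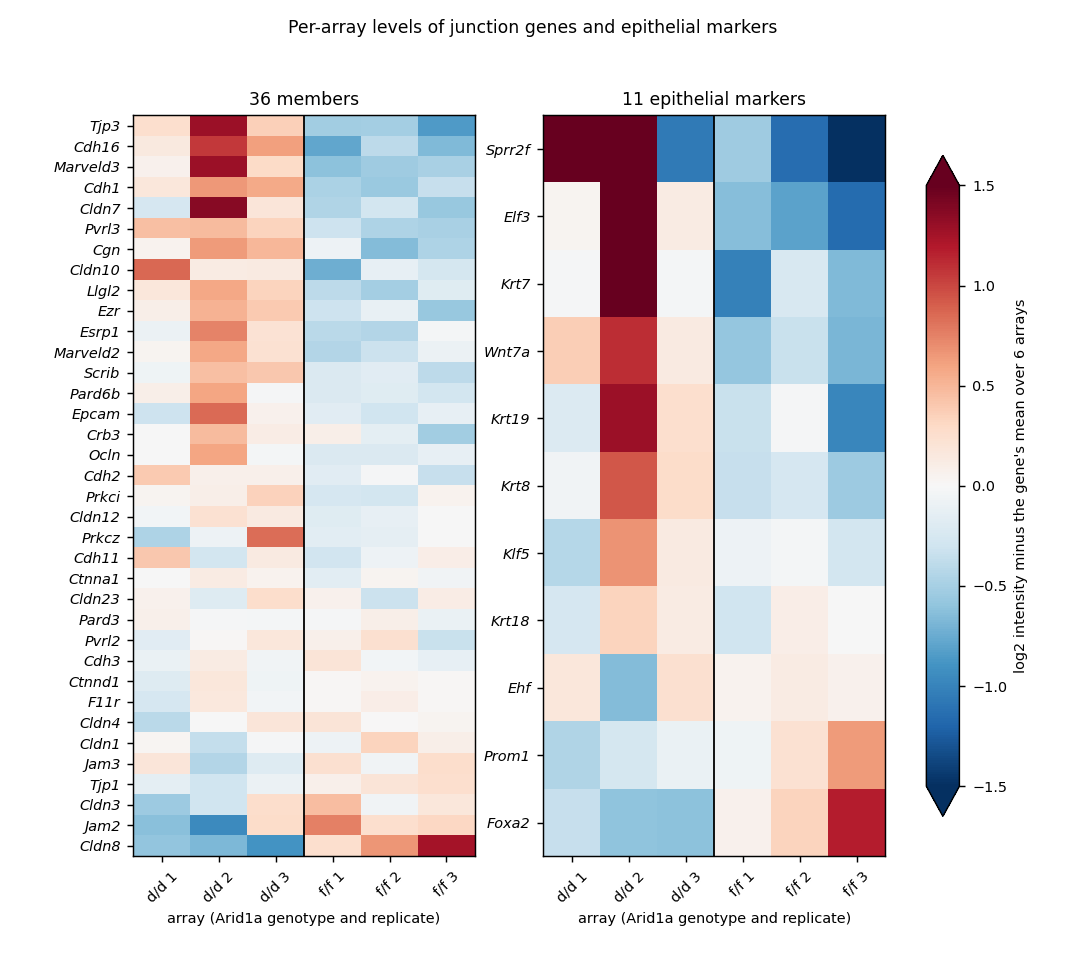
Log2 intensity on each array minus the mean of that gene over the 6 arrays (color, with values beyond 1.5 in the end colors), for the 36 members not below the median intensity in both genotypes (left) and 11 markers of the epithelium (right), ordered by fold change. Columns are the Arid1a d/d arrays and then the Arid1a f/f arrays. Red runs through the Arid1a d/d columns of the upper members and is deepest on Arid1a d/d replicate 2 for many of them, and several markers show the same array as their highest.

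A list of 93 other genes of these junctions, of polarity complexes and of the epithelial surface held 84 that a probe set names alone. Of these 3 rose and 8 fell at an adjusted p under 0.05, against 3.37% and 4.06% of all genes, so that the share that rose was near that of all genes. At an unadjusted p 13 were higher and 20 lower, against 11.4% and 13.5% of all genes. Their median log2 fold change was 0.036. With Arid1a d/d replicate 1 left out, 7 rose, and with any other array left out 1 rose. Leaving out Arid1a d/d replicate 1, 2 or 3 left 4, 6 and 5 that fell, and leaving out Arid1a f/f replicate 1, 2 or 3 left 5, 3 and 3. Of 11 other claudin genes, none passed the test, with 1 higher and 2 lower at an unadjusted p (limma). Among 15 other tight junction genes, Ybx3, which encodes a transcription factor that binds the zonula occludens scaffold, rose by 0.53 (limma adjusted p = 0.0270). The endothelial adhesion gene Esam had 62.7, 55.7 and 63.5 in Arid1a d/d uteri and 148, 147 and 158 in Arid1a f/f uteri (log2 fold change -1.32, limma adjusted p = 0.00100), and Rab13, a small GTPase gene of junction traffic, had -0.50.

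Among 25 other adherens junction genes, 1 rose and 4 fell, against 3.37% and 4.06% of all genes. Ssx2ip, which encodes a protein that binds the nectin partner afadin, had 25.6, 47.1 and 31.6 in Arid1a d/d uteri and 11.8, 13.9 and 13.3 in Arid1a f/f uteri (log2 fold change 1.38, limma adjusted p = 0.00982). Cdh5, the cadherin gene of endothelial junctions, which lies next to Cdh11 in the genome with no protein-coding gene between them, had 32.9, 22.3 and 31.3 in Arid1a d/d uteri and 76.4, 74.5 and 82.0 in Arid1a f/f uteri (log2 fold change -1.45, limma adjusted p = 0.00321). The catenin-family gene Arvcf had -1.19, the cadherin gene Cdh13 -0.80 and the poliovirus receptor gene Pvr, a relative of the nectins, -0.51. Of 17 other polarity genes, Lin7a, a scaffold gene, fell by 0.97. Patj did not pass on its brightest probe set (log2 fold change -0.39, limma adjusted p = 0.0565). A second probe set of Patj passed, with -0.79 (limma adjusted p = 0.0241), and its dimmest had 0.13 and -0.18. Of 16 other genes of ezrin-like proteins, microvilli and epithelial splicing, Slc9a3r1, which encodes a scaffold that binds ezrin, rose by 0.65, and Msn, the moesin gene, fell by 0.44. Cdh5, Esam and the claudin gene Cldn5 (log2 fold change -0.53, limma adjusted p = 0.0974) are also among the 12 endothelial markers, of which 10 fell, against 4.06% of all genes. The mean log2 intensity of the endothelial markers was 4.91, 4.62 and 4.87 on the Arid1a d/d arrays and 5.75, 5.76 and 5.78 on the Arid1a f/f arrays. Markers of stromal fibroblasts (1 of 12 lower), smooth muscle (1 of 10 lower), leukocytes (2 of 9 lower) and mesothelium (0 of 6) had medians of -0.24, -0.12, -0.35 and -0.16, and their part in these values was not tested.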

How the data were processed

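The deposited table gives 1 normalized intensity per probe set and array on a linear scale. The authors made it from Affymetrix mouse arrays with RMA and global scaling; RMA is also in the submitters' processing notes, without a version. RMA borrows information across arrays and can compress the folds of dim probe sets. The median intensity of an array was 3.05 to 3.17. How the table relates to the trimmed mean that the methods name is not given in these sources. Each intensity was converted to log2, and Arid1a d/d was compared with Arid1a f/f with lmFit and eBayes of limma (version 3.58.1, R 4.3.3), without a filter or pseudocount. Two-sided p-values were adjusted by the Benjamini-Hochberg method over all 45037 probe sets. The fit was tested on simulated data first. Names came from the platform annotation. A single gene is named by 34945 probe sets, and several genes by 932, which were not used for genes. The other 9160 are unnamed here. Each gene was taken from its brightest probe set. The files name no genome build. Promoters are RefSeq sequences of GRCm38.p6, of which 26 members matched by symbol.

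The members and gene lists were chosen with earlier results of these data known. Per-array values are given for each member that passed the test, for each whose arrays did not overlap between genotypes at an absolute log2 fold change of 0.5 or more, and for Cdh1, Epcam, Ocln and Tjp1. Pathway genes past the test are named, up to 4 per list and direction, and Patj is named besides for a second probe set that passed. Per-array values of Cldn3, Jam2, Prkcz, Krt8, Foxa2, Esam, Ssx2ip and Cdh5, and of the second probe sets of Crb3 and Epcam, lie outside this rule, having been picked with their values in view. Alternative fits used quantile normalization, a replicate block, arrays centred on their medians, the brighter 50% of probe sets, robust eBayes with a trend, array weights, the methods' t-test or a pseudocount of 1. Others dropped each array or the probe sets shared by several transcripts, averaged the probe sets of a gene, or moved the threshold. The number of arrays limits the precision.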

Additional observations from a re-analysis of the deposited data

How the results depend on the processing

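Under the alternatives other than leaving out an array, the 40 members changed sign only where neither fit called them. Pvrl2 had -0.0011 after quantile normalization. Without the probe sets shared by several transcripts, Prkci had -0.21, Ctnna1 -0.080 and Ctnnd1 0.050. As the mean of their probe sets, Cdh3 had 0.016 and Ctnna1 -0.041. In the fits that left out 1 array, sign changes gave ranges of -0.28 to 0.011 for Cldn4, -0.023 to 0.12 for Cldn6, -0.044 to 0.21 for Cldn23, -0.19 to 0.015 for F11r, -0.020 to 0.073 for Pard3, -0.17 to 0.48 for Prkcz, -0.091 to 0.068 for Cdh3, -0.15 to 0.024 for Ctnnd1 and -0.15 to 0.13 for Pvrl2. In the same fits, 1 to 9 members were higher and 0 to 2 lower, 1 to 7 pathway genes were higher and 3 to 6 lower, and the median of the members was 0.21 to 0.33. The lowest counts of higher members were 1, without Arid1a f/f replicate 2, and 3, which was the count without either Arid1a d/d replicate 3 or replicates 1 or 3 of Arid1a f/f. Without Arid1a f/f replicate 2, 0 members were lower in limma, with 3 lower at an unadjusted p under 0.05.

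The methods' t-test called 0 members and 0 pathway genes in either direction after Benjamini-Hochberg adjustment, with 10 and 5 higher and 2 and 16 lower at an unadjusted p under 0.05, where limma called 7 members and 3 pathway genes higher and 1 and 8 lower. At an adjusted p under 0.1, 10 members were higher and 2 lower, and for pathway genes the counts were 6 higher and 12 lower by that threshold. At an adjusted p under 0.01, 1 member was higher and 0 lower, and 1 pathway gene was higher and 2 lower. The median of the members was 0.34 with the dimmest probe sets left out, 0.18 without those shared by several transcripts and 0.19 as the mean of the probe sets. Without the shared probe sets 1 pathway gene was higher, and as the mean of the probe sets 5 were lower. The causes of these differences were not tested, and the shares of all genes called under the alternatives are not given here. The samples of each genotype share the numbers 1 to 3 in the labels. Deviations from the genotype means correlated at -0.0036, 0.047 and 0.14 for the same number, and at -0.12 to 0.065 for different numbers. So few pairs cannot decide whether the numbers mark a pairing, and the main fit used none. With the replicate block, 7 pathway genes were higher and 5 lower, so that more rose than fell, Cgn did not pass (adjusted p = 0.0841, limma) and Marveld3 passed (adjusted p = 0.0373, limma). Ezr did not pass after quantile normalization (adjusted p = 0.0588, limma), nor did Cgn with a pseudocount of 1 (adjusted p = 0.0592, limma) or without the shared probe sets (adjusted p = 0.0521, limma). Marveld3 also passed with the dimmest probe sets left out, with robust eBayes and a trend, and with array weights (adjusted p of 0.0486, 0.0361 and 0.0483). As the mean of their probe sets, Cgn had 0.42 and Ezr 0.35 and neither passed.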
